A study of Mus musculus with 6 samples.

Results

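The Reg family consists of small secreted proteins built around a C-type lectin fold, and 6 mouse family genes were followed here: Reg3b, Reg3g, Reg3a, Reg3d, Reg1 and Reg4. They were chosen by gene symbol from the 27179 genes of the deposited table, with the T3 response of these genes already known, so their differences between the groups are given as descriptions without a test. The groups were wild-type (WT) small intestinal organoids given T3, the active thyroid hormone, at 1e-07 M for 17 h (3 libraries) and the same kind of organoids given vehicle (3 libraries). Organoids are epithelial cultures grown from the gut lining, here in Matrigel with Intesticult medium. The labels do not say whether the 3 libraries of a group came from separate cultures or animals, so the p-values reflect the scatter of these 6 libraries alone, and that scatter may be technical.

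As background, Reg3b and Reg3g are antibacterial lectins secreted by the epithelium of the small intestine. Reg3g protein binds peptidoglycan and keeps bacteria away from the mucosal surface. The genes of both are induced by microbial signals through Myd88 and by interleukin-22, which acts on epithelial cells through the transcription factor STAT3. Reg1 was first studied in regenerating pancreatic islets and exocrine pancreas. Reg3d is related to the hamster islet neogenesis protein INGAP, and Reg4 is expressed in secretory cells of the gut, enteroendocrine cells among them. The antibacterial protein most studied in people is REG3A, but its closest functional counterpart in the mouse is usually taken to be Reg3g, not the mouse gene called Reg3a.

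Of the 6 genes, 5 lie in a single cluster with Reg2 on chromosome 6 of GRCm38 (mm10 in the file headers), between 78370885 and 78468874, a stretch of 97.99 kb that holds 6 Reg genes. Their order is Reg3b (78370885 to 78373466, plus strand), Reg3d (78375874 to 78378865, minus), Reg3a (78380709 to 78383839, plus), Reg2 (78405155 to 78408097, plus), Reg1 (78425983 to 78428666, plus) and Reg3g (78466268 to 78468874, minus). Only 2.407 kb separate Reg3b from Reg3d and 1.843 kb separate Reg3d from Reg3a, while 37.601 kb separate Reg1 from Reg3g at the far end. Reg4 lies alone on chromosome 3 (98222156 to 98236748, plus strand). Each of the 6 genes has 6 exons, and no other gene of GENCODE M21 overlaps them on either strand.

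The upstream sequences of Reg3b, Reg3g, Reg3a and Reg1 are shown because these are the genes whose T3 and vehicle libraries did not overlap, in opposite directions within the cluster. Each is the 250 bases before the annotated start, 5′ to 3′ on the gene's own strand, from RefSeq on GRCm38.p6, where all 6 genes were found by symbol. The windows are chr6:78370635-78370884 (plus) for Reg3b, chr6:78468875-78469124 (minus) for Reg3g, chr6:78380459-78380708 (plus) for Reg3a and chr6:78425733-78425982 (plus) for Reg1. Capitals mark every run of at least 10 bases that also occurs in another of these 4 windows.
Reg3b: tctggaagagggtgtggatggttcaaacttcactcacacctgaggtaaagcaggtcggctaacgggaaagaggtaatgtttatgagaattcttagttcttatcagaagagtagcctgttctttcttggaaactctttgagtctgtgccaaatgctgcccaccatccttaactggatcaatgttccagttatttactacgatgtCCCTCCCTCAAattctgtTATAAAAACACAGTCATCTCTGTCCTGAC
Reg3g: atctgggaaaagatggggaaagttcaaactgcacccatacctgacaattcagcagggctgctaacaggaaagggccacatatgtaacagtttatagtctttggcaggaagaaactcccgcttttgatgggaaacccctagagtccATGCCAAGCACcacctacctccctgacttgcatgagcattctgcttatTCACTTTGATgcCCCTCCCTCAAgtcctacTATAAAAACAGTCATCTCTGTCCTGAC
Reg3a: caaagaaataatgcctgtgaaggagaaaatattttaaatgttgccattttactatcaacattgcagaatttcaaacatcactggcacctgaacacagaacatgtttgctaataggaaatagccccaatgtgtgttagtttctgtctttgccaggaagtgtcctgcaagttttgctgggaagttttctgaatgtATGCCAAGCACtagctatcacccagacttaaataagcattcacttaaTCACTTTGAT
Reg1: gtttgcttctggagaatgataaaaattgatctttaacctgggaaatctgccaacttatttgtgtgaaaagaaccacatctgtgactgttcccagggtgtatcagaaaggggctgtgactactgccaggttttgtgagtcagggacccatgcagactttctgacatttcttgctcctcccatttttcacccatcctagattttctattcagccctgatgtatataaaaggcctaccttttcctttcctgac

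The upstream windows of Reg3b and Reg3g, which stand at opposite ends of the cluster, were 68.9% identical in a global alignment. The 300 pairs of windows from neighbouring genes on chromosome 1 ranged from 33.1% to 57.7%, with a median of 49.0%. The shared runs of Reg3b and Reg3g include the last 20 bases before the start and a TATAAA box that begins 29 bases before the start in Reg3b and 27 bases before it in Reg3g, which holds another on the opposite strand at 161 bases. Reg3a shared less with them, with 47.9% identity to Reg3b and 50.5% to Reg3g. Its shared runs with Reg3g end 47 bases and 1 base before its own start, but 95 and 48 bases before the start of Reg3g. Reg1 has a TATAAA box 30 bases before the start and no capitals, and its window was closest to that of Reg2, at 58.5%. TATAAA was absent from the windows of Reg3a, Reg3d and Reg4 on either strand, and 12.4% of all 32851 RefSeq windows of this length hold it.

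Motifs for factors of interest were sparse in these windows, searched on both strands. The STAT pattern TTCNNNGAA was present in the window of Reg3b, beginning 129 bases before the start, and in that of Reg3d, 238 bases before it. It was in 7.02% of all windows. The hexamer AGGTCA, to which thyroid hormone receptors bind in pairs, was present only in the window of Reg3d among the 6 genes, beginning 181 bases before the start, against 14.0% of all windows. The direct repeat DR4, which is 2 copies of AGGTCA with 4 bases between them, was in none of the 6 and in 0.0152% of all windows. TTTATG, a pattern of the intestinal factor CDX2, was in the window of Reg3b only among the 6, 172 bases before the start, against 10.8% of all windows. None of the matches in the 6 windows overlapped another motif.

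Transcripts of the family are related but distinct, which bears on whether reads can be assigned to a single gene. Reference transcripts of Reg3b, Reg3g and Reg3a were 65.4% to 69.0% identical in pairs, and Reg4 was 48.6% to 51.3% identical to the other 5 genes. The longest run of identical bases in any pair was 35, between Reg3b and Reg3g, and no run of 50 bases was shared by any pair of the 6 genes or by any of them with Reg2. The read length and the treatment of reads matching several genes are not given in the sources used here, so splitting of short reads between Reg3b and Reg3g was not tested.

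The 6 libraries held 29510422 to 29974091 normalized reads with T3 and 28197080 to 28611883 with vehicle. Normalized reads are reads per gene that the authors scaled between libraries and rounded. A gene was tested when at least 3 libraries had at least 10 of them, which left 13052 genes. With T3 24% of these were called higher and 20.8% lower, 44.8% in all, at an adjusted p under 0.05 in limma's test. The higher genes made up 53.6% of the calls as the table was scaled, 42.9% after scaling to the upper quartile and 38.7% after scaling each column to 1 common total. Replicates within a group differed by a root mean square of 0.244 to 0.308 on the log2 scale, and T3 and vehicle libraries differed by 0.602 to 0.631. T3 replicate 3 stood farthest from the other libraries of its group, at 0.287 and 0.308 against 0.244 between the other two. The epithelial label was checked against markers. All 15 enterocyte markers passed the filter, whereas Ptprc, the pan-leukocyte marker, did not exceed 3 normalized reads in any library and Il22, Adgre1 and Cdh5 were at 0 in every library.

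Of the 6 Reg genes 5 passed the filter on low values. The T3 and vehicle libraries did not overlap for 4 of the 5, beside 54.9% of all genes tested. Nothing is read from this count, because the genes were chosen with this comparison known. In bulk RNA, fewer cells that express a gene and less RNA per cell cannot be told apart.

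**Figure D1:**
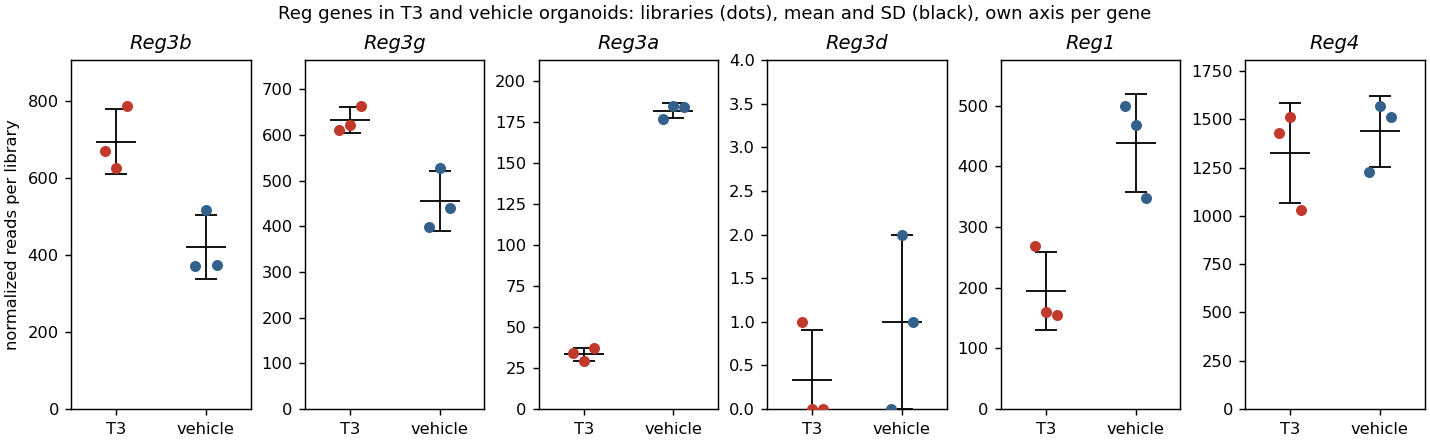
Normalized reads per library for each Reg gene with T3 (left, red) and vehicle (right, blue), with the mean and SD over 3 libraries in black and a separate linear axis for each gene. Reg3b and Reg3g were higher and Reg3a and Reg1 lower in every T3 library than in any vehicle library, and Reg3d was close to 0 throughout.

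The antibacterial pair was higher with T3. Reg3b had 669, 627 and 788 normalized reads in T3 replicates 1 to 3, against 372, 516 and 373 in vehicle replicates 1 to 3. Its lowest T3 library thus stood above its highest vehicle library, and vehicle replicate 2 was the vehicle library nearest to the T3 range. The means were 695 ± 83.5 with T3 and 420 ± 82.9 with vehicle (SD, n = 3 each), 1.66-fold higher (log2 fold change 0.73 ± 0.13 SE). Reg3g had 611, 622 and 664 normalized reads with T3, against 399, 527 and 439 with vehicle. The groups again did not overlap, and vehicle replicate 2 was again the highest vehicle library. Reg3g averaged 632 ± 28.0 with T3 and 455 ± 65.5 with vehicle (SD, n = 3 each), 1.40-fold higher (log2 0.48 ± 0.10 SE). The ratio of Reg3b to Reg3g per kb of exon was 1.12, 1.03 and 1.21 in the T3 libraries and 0.951, 0.998 and 0.866 in the vehicle libraries, so Reg3b stood slightly higher relative to Reg3g in every T3 library.

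Reg3a, the next gene after Reg3b transcribed from the same strand, was lower with T3. It had 34, 29 and 37 normalized reads in T3 replicates 1 to 3, against 177, 185 and 184 in vehicle replicates 1 to 3. Its vehicle libraries were nearly equal, and the highest T3 library lay far below the lowest of them. The means were 33.3 ± 4.04 with T3 and 182 ± 4.36 with vehicle (SD, n = 3 each), 5.35-fold lower (log2 -2.42 ± 0.14 SE), the widest difference in the family. Within a library, where scaling cancels, Reg3b exceeded Reg3a per kb by 21.7, 23.8 and 23.5 times with T3 and by 2.32, 3.08 and 2.24 times with vehicle.

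Reg1, which encodes the family's founding pancreatic protein, was also lower with T3. It had 269, 159 and 155 normalized reads with T3, against 500, 468 and 347 with vehicle. The groups did not overlap, but both were spread out, with T3 replicate 1 well above the other T3 libraries and vehicle replicate 3 well below the other vehicle libraries. Reg1 averaged 194 ± 64.7 with T3 and 438 ± 80.7 with vehicle (SD, n = 3 each), 2.30-fold lower (log2 -1.20 ± 0.21 SE). Its log2 difference ran from -1.46 without T3 replicate 1 to -1.06 without T3 replicate 3.

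Reg4 was the most abundant member and its groups overlapped. It had 1432, 1514 and 1031 normalized reads with T3, against 1230, 1572 and 1514 with vehicle. T3 replicate 3 was the lowest library of all and vehicle replicate 1 the next lowest. Reg4 averaged 1326 ± 258 with T3 and 1439 ± 183 with vehicle (SD, n = 3 each), a log2 fold change of -0.13 ± 0.14 SE that turned to 0.04 without T3 replicate 3. Reg3d was listed at 1, 0 and 0 normalized reads with T3 and at 0, 2 and 1 with vehicle. Reg2, the cluster gene outside the 6, was listed at 0 in all libraries. No fold is given for either. The authors' deposited table gave log2 fold changes of 0.72 for Reg3b, 0.47 for Reg3g, -2.43 for Reg3a, -1.17 for Reg1 and -0.12 for Reg4, from the same libraries.

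**Figure D2:**
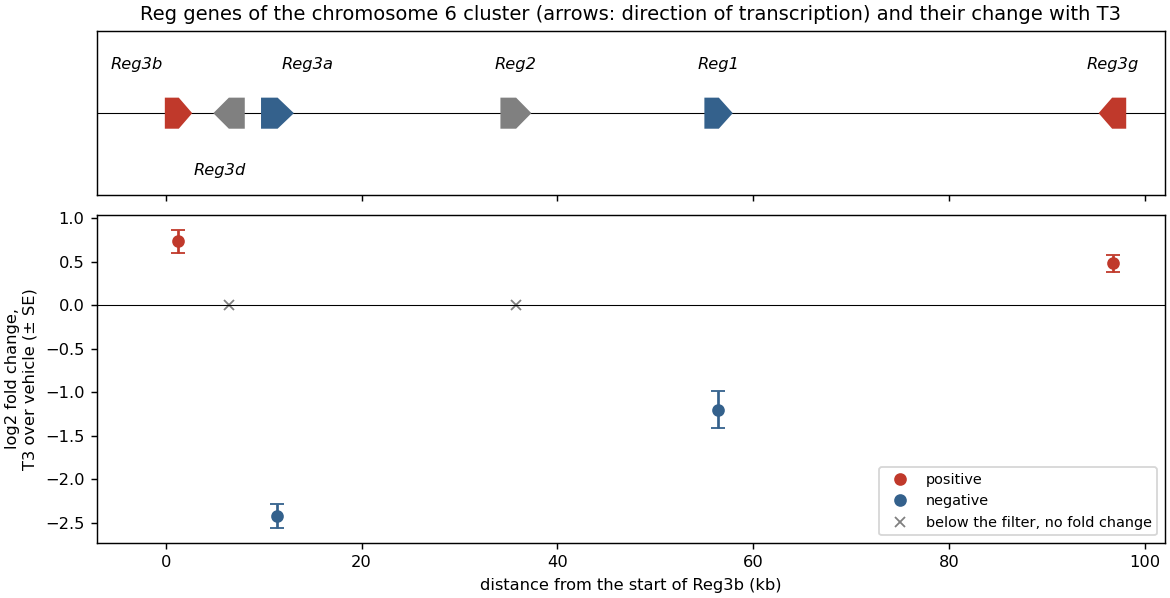
Top, the Reg genes of the chromosome 6 cluster by distance in kb from the start of Reg3b, with arrows for the direction of transcription. Bottom, each gene's log2 fold change of T3 over vehicle with its SE. The genes with positive values, Reg3b at 0.73 and Reg3g at 0.48, sit at opposite ends, with Reg3a at -2.42 and Reg1 at -1.20 between them, and grey crosses mark Reg3d and Reg2, which did not pass the filter.

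Levels between genes are compared per kb of exon. With T3 the order was Reg4 at 1298 ± 253 normalized reads per kb, Reg3b at 915 ± 110, Reg3g at 817 ± 36.1, Reg1 at 253 ± 84.1 and Reg3a at 39.8 ± 4.83 (SD, n = 3 each). With vehicle it was Reg4 at 1409 ± 179, Reg3g at 588 ± 84.6, Reg1 at 570 ± 105, Reg3b at 554 ± 109 and Reg3a at 217 ± 5.21 (SD, n = 3 each). In vehicle libraries the means of Reg3g, Reg1 and Reg3b thus did not differ beyond their spread between libraries. In T3 libraries the means of Reg3b and Reg3g remained within that spread, while Reg1 stood below both in every library. Within a library, however, Reg3b was above Reg3g in every T3 library and below it in every vehicle library. Reg4 was above Reg3b in T3 replicates 1 and 2 but not in replicate 3, which had 1010 normalized reads per kb of Reg4 and 1038 of Reg3b. Among the genes tested Reg4 stood high, above 84.5% of them with T3 and above 86.6% with vehicle. Reg3b stood above 77.6% of genes with T3 and 66.4% with vehicle, and Reg3a above 18.5% with T3 and 42.0% with vehicle.

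The summed level of the family was about equal in both groups, while its make-up was not. The 6 genes summed to 3324 ± 159 normalized reads per kb with T3 and 3339 ± 348 with vehicle (SD, n = 3 each). Of the 5 genes on chromosome 6, Reg3b held 42.7%, 44.1% and 48.5% of the reads per kb in the T3 libraries and 26.2%, 31.0% and 28.4% in the vehicle libraries. Reg3g averaged 40.4% ± 2.36 with T3 and 30.5% ± 2.63 with vehicle. Reg1 averaged 12.5% ± 3.97 with T3 and 29.5% ± 4.64 with vehicle, and Reg3a 1.96% ± 0.106 with T3 and 11.4% ± 1.31 with vehicle (SD, n = 3 each). Reg3b and Reg3g together thus made up most of the cluster's transcripts in both groups and a larger part with T3.

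**Figure D3:**
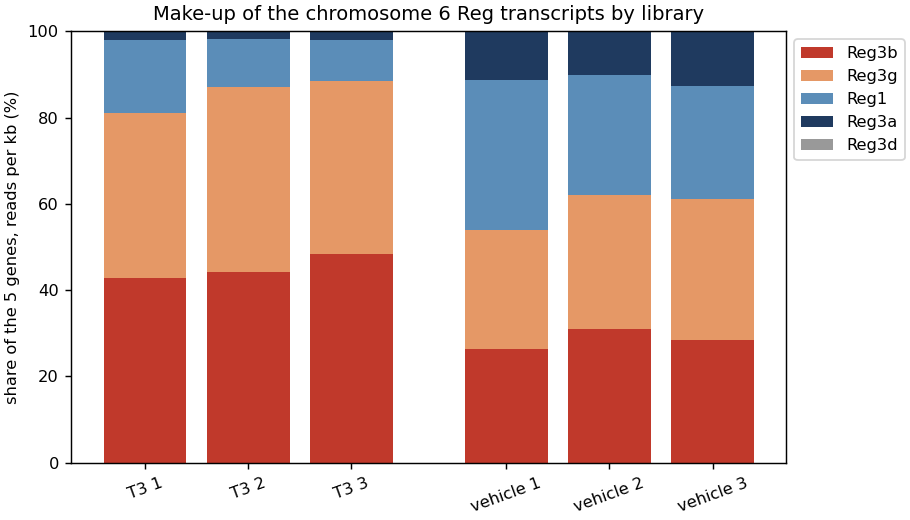
Share of each gene in the reads per kb of the 5 Reg genes on chromosome 6, by library, with the T3 libraries on the left and the vehicle libraries on the right. Reg3b and Reg3g (red and orange) fill a larger part of every T3 bar than of any vehicle bar, and Reg3a (dark blue) is a thin band at an average of 1.96% with T3, against 11.4% with vehicle.

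Replicates scattered more for most Reg genes than for other genes of like level. In T3 libraries the coefficient of variation was 33.3% for Reg1 and 19.5% for Reg4, where the 200 tested genes nearest in mean level to each had medians of 8.27% and 3.48%. Reg3b was above 93.5% of its 200 genes of like level there. In vehicle libraries it was 19.7% for Reg3b, 18.4% for Reg1, 14.4% for Reg3g and 12.7% for Reg4, above 94.5% to 98.5% of the 200 genes of like level. Reg3g in T3 libraries and Reg3a in both groups were the exceptions. Reg3g varied by 4.42% with T3, above 44.0% of such genes, and Reg3a by 12.1% with T3 and 2.40% with vehicle, above 28.0% and 6% of them.

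The genes whose values over the 6 libraries were most like each member were found among 10158 genes with a mean of at least 100 normalized reads. Likeness was the root mean square difference in log2 units after each gene's own mean was subtracted, so a smaller value is closer. Nearest to Reg4 were Guca2a (0.0341), which encodes the peptide guanylin, Chgb (0.0439), a granule protein of enteroendocrine cells, and Spink4 (0.0528), a secreted goblet cell protein. Chgb had 7816, 7925 and 5194 normalized reads with T3 and 6558, 8004 and 7618 with vehicle, so T3 replicate 3 and vehicle replicate 1 were its lowest libraries, as for Reg4. The goblet cell marker list summed to 109830, 115561 and 73587 in T3 replicates 1 to 3 and 86875, 106715 and 96805 in vehicle replicates 1 to 3. The enteroendocrine list summed to 18388, 18099 and 13712 with T3 and 15488, 19912 and 18540 with vehicle. Chgb and Spink4, picked above for their likeness to Reg4, are themselves in these lists. Fcgbp weighs heavily in the goblet sum, with 76462, 80274 and 47056 normalized reads with T3 and 57463, 71952 and 65044 with vehicle. Both sums were lowest in the libraries where Reg4 was lowest, but this was not particular to these 2 lists. The Paneth cell list was also lowest within its group in T3 replicate 3 (99045) and vehicle replicate 1 (64289). The tuft cell list was lowest in T3 replicate 3 (371), with 507 and 506 in vehicle replicates 1 and 3. The part of any of these lists in the Reg4 values was not tested.

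Nearest to Reg3b were Clu (0.0797), the clusterin gene, S100a11 (0.0854) and Osr2 (0.115), and Reg3g was rank 16 in likeness to Reg3b. Seen from Reg3g, Reg3b was rank 647, so many genes were closer to Reg3g. Clu had 619, 619 and 754 normalized reads with T3 and 335, 541 and 386 with vehicle, with the same highest library in each group as Reg3b. Nearest to Reg3g were Lekr1 (0.0582), Nkiras1 (0.0694) and Tmem82 (0.0708). Nearest to Reg3a were Cbr3 (0.0860), a carbonyl reductase, Angptl4 (0.0956), a secreted lipase inhibitor, and Olfm4 (0.112), a crypt stem cell marker. Olfm4 had 5212, 4706 and 5683 normalized reads with T3 and 30164, 24540 and 26306 with vehicle. Nearest to Reg1 were Tacc1 (0.161), Cyp2c38 (0.169) and Abhd15 (0.219), so no gene followed Reg1 as closely as others followed Reg4. These values describe likeness over 6 libraries in 2 groups and carry no test.

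**Figure D4:**
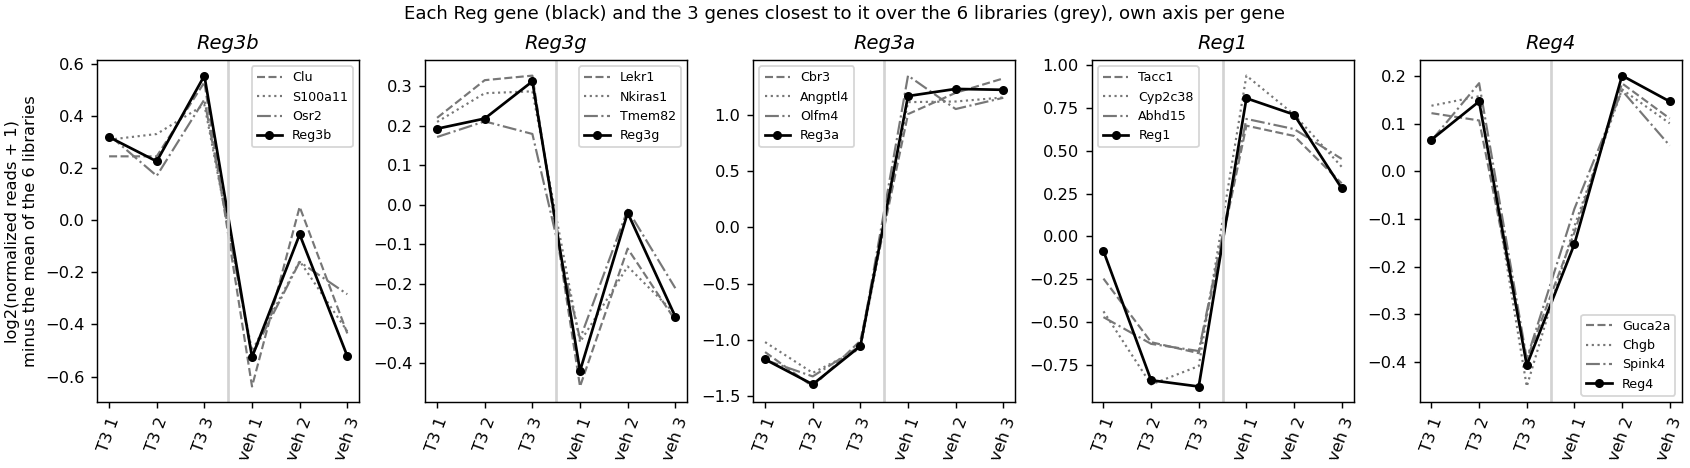
Log2(normalized reads + 1) minus the gene's mean over the 6 libraries, for each Reg gene (black) and the 3 genes most like it (grey), with T3 libraries on the left of each panel, a separate axis per panel and lines only to guide the eye. The Reg4 panel is lowest in T3 replicate 3 in all 4 genes, whereas the other panels separate T3 from vehicle libraries.

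Genes around the members differed between the 2 loci. On chromosome 6 the gene-poor surroundings held 3 other listed genes within 500 kb, Ctnna2, Gm5576 and Reg2, and none reached 3 normalized reads in any library. Around Reg4 on chromosome 3 several neighbours within the same distance were tested. Phgdh, the first enzyme of serine synthesis, fell 1.42-fold to 2827 ± 152 with T3, against 4014 ± 74.9 with vehicle (limma adjusted p = 1.89e-05). Zfp697 fell 2.24-fold and Pde4dip rose 1.29-fold, whereas Sec22b and Notch2 had log2 fold changes of 0.11 and -0.13 and were not called, although Sec22b was called higher without T3 replicate 3.

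The pathway that induces Reg3b and Reg3g was followed through lists chosen, like the members, with earlier results of these data known, and some genes stand in more than 1 list. Of 14 tested genes of IL-22 and STAT3 signalling 6 were higher and 1 lower with T3, and the median log2 fold change was 0.16, beside -0.01 over all genes tested. Calls thus made up 50% of this list, near the 44.8% of all genes tested. Among the higher genes the calls of Il6ra and Pias3 were lost under some alternatives. The higher genes were 4 without T3 replicate 1 or without vehicle replicate 3, and 7 without T3 replicate 3. Il22ra1, the epithelial subunit of the IL-22 receptor, had 2011, 1902 and 2044 normalized reads with T3 and 1346, 1366 and 1322 with vehicle. All T3 libraries were above all vehicle libraries, and the gene rose 1.48-fold (limma adjusted p = 7.65e-06). The kinases Jak2 and Jak1 rose 1.34-fold and 1.27-fold, and Stat3 rose 1.29-fold, each T3 library above every vehicle library (limma adjusted p = 0.000285). Socs3, the feedback inhibitor that STAT3 itself induces, fell 2.15-fold to 128 ± 5.77 with T3, against 279 ± 40.0 with vehicle (limma adjusted p = 5.80e-05). The cytokine gene Il22 was at 0 in every library.

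Other genes known to be induced by IL-22 or STAT3 were mostly higher where they were measurable. Of 21 such genes outside the family 11 were tested, 7 of them higher and 1 lower, with a median log2 fold change of 1.41. Among the tested ones 72.7% were called, beside 44.8% of all genes tested. The list passed the filter in part through genes that were low with vehicle. Bcl3, an IκB family regulator, rose 4.10-fold, Duox2, an epithelial hydrogen peroxide producer, 4.13-fold, Il18, an epithelial cytokine, 2.90-fold and the kinase gene Pim1 2.66-fold. The exception was again Socs3, which is in both lists. Lcn2, Saa1, Saa2, Saa3, S100a8, S100a9 and Retnlb, all common markers of an inflamed gut, stayed at or below 5 normalized reads in every library. Dmbt1, a mucosal scavenger protein with 17870, 21327 and 15022 normalized reads with T3 and 23168, 18746 and 20457 with vehicle, overlapped between the groups and was not called, nor were Tifa and Fut2. The lower genes became 2 without T3 replicate 2, when Dmbt1 was called, or without T3 replicate 3, when Tifa was.

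Of 15 tested genes of microbial sensing, the other route to Reg3b and Reg3g, 7 were higher and 2 lower, with a median log2 fold change of 0.16. This is 60% called, beside 44.8% of all genes tested. Nod2, a cytosolic sensor of bacterial cell wall fragments, had 407, 367 and 394 normalized reads with T3 and 27, 23 and 33 with vehicle, a 13.7-fold rise (limma adjusted p = 7.62e-08, higher in 3 of 3 T3 libraries). Tlr2, a surface receptor for bacterial lipoproteins, rose 4.63-fold to 113 ± 4.04 with T3, against 23.7 ± 3.06 with vehicle. The adaptor Ticam1 rose 1.57-fold and the kinase Irak4 1.34-fold. The 2 lower genes were Tlr5 and Nlrp6, which fell 1.94-fold and 1.21-fold. Tlr5 had 24, 28 and 23 normalized reads with T3 and 45, 44 and 60 with vehicle (limma adjusted p = 0.00361). With a filter at 50 normalized reads the lower genes were 1. Myd88, the adaptor through which microbes induce Reg3g, had a log2 fold change of 0.16 and was not called (limma adjusted p = 0.0512), but it was called higher without T3 replicate 2, with a replicate block, with a filter at 50 normalized reads or with robust variances.

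Antimicrobial genes of other families that passed the test were all higher with T3. Of 17 tested genes 6 were called higher and 0 lower in limma, with 0 lower at an unadjusted p under 0.05 as well, or 35.3% called beside 44.8% of all genes, with a median log2 fold change of 0.23. Itln1, an intelectin that binds bacterial sugars, rose 2.49-fold to 80652 ± 8932 with T3, against 32293 ± 1056 with vehicle (limma adjusted p = 8.61e-07). Lypd8, which coats flagellated bacteria in the colon, rose 1.36-fold, the Paneth cell pentraxin Mptx1 2.17-fold and Nos2, the inducible nitric oxide synthase, 3.85-fold. The calls of the other 2, Mptx2 and Pigr, were lost under several alternatives. Lyz1, the Paneth cell lysozyme, had 9509, 10427 and 6917 normalized reads with T3 and 10526, 11488 and 10074 with vehicle, and was called lower only without T3 replicate 2, with equal column totals or with a replicate block. Without T3 replicate 2 both Lyz1 and Dmbt1 were called lower. Of 14 tested lectins of other families 8 were higher and 0 lower in limma, with 0 lower at an unadjusted p under 0.05, and the median log2 fold change was 0.42. Calls made up 57.1% of these lectins, beside 44.8% of all genes. Itln1 counts here too, beside the galectins Lgals9 (2.09-fold), Lgals3 (3.46-fold) and Lgals8 (1.42-fold). With equal column totals 2 lectins, Lgals2 and Lgals4, were called lower.

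Cell type markers moved with the groups as well. In mouse intestine Reg3b, Reg3g and Reg1 are known to be expressed toward the lower villus together with Nlrp6, Il18, Lypd8 and Ccl25. Of these 4 companions Ccl25, a chemokine, rose 1.69-fold, Il18 and Lypd8 rose as given above, and Nlrp6, an inflammasome sensor, fell 1.21-fold to 11487 ± 629 with T3, against 13943 ± 190 with vehicle. Villus tip genes were split, with Ada and Creb3l3 lower (log2 -0.84 and -0.58) and Cdh1 and Nt5e higher (log2 0.35 and 1.74) among 8. Nt5e passed the filter only through its T3 libraries, at 24, 23 and 19 normalized reads against 3, 9 and 7 with vehicle, and without any 1 of them the higher genes were 1. Of 15 enterocyte markers 9 were higher and 2 lower, with a median log2 fold change of 0.56, and Lct, the lactase gene, rose 3.07-fold, Sis, sucrase-isomaltase, 2.42-fold, Slc5a1, a glucose transporter, 2.23-fold and Apoa1, an apolipoprotein, 3.08-fold. The lower enterocyte markers were Fabp2 (log2 -0.67) and Treh (log2 -0.49), and Treh lost its call without vehicle replicate 3. Among the higher enterocyte markers Apob overlapped between the groups and lost its call under several alternatives. Of 12 stem cell markers 10 were lower and 1 higher, with a median of -0.73, and Olfm4 fell 5.19-fold, Igfbp4 2.78-fold, Aqp4 1.73-fold and Ephb3 1.72-fold. Called genes were 100% of the 4 lower villus companions, 50% of the villus tip, 73.3% of the enterocyte and 91.7% of the stem cell genes. Over all genes tested the share was 44.8%. The enterocyte list summed to between 193837 and 213675 normalized reads with T3 and between 126227 and 132179 with vehicle. The stem cell list summed to between 78823 and 88320 with T3 and between 110065 and 125995 with vehicle. A few abundant genes weigh heavily in these sums. Olfm4 averaged 5200 with T3 and 27003 with vehicle, while Slc12a2, higher still at 45448 with T3 and 43303 with vehicle, was not called. Cdca7 was the stem cell marker that rose (log2 0.24). With T3 the enterocyte sum was higher and the stem cell sum lower, so any gene that differed went with either of them by construction. For Reg3b and Reg3g this was the enterocyte sum and for Reg3a and Reg1 the stem cell sum, and nothing is read from it. The part of either sum in the Reg values was not tested.

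Markers of the secretory lineages were examined in the same way. Called genes were 46.2% of the tested Paneth cell, 25% of the goblet cell, 15% of the enteroendocrine and 37.5% of the tuft cell markers. All genes tested had a share of 44.8%. For Paneth cells 4 of 13 tested markers were higher, Itln1 and Mptx1 among them, and 2 were lower, Pnliprp2 (log2 -0.77) and Nupr1 (log2 -0.67). For goblet cells 1 of 12 was higher, Clca1 (2.83-fold), and 2 were lower, Foxa3 (log2 -0.47) and Galnt12 (log2 -0.51). The higher goblet markers were 4 without T3 replicate 3 and 2 without vehicle replicate 2. For enteroendocrine cells limma called 0 of 20 higher, with 0 at an unadjusted p under 0.05, and 3 lower, Cplx2 (log2 -0.84), Neurog3 (log2 -0.34) and Insm1 (log2 -0.33), or 6 lower without vehicle replicate 1. For tuft cells limma called 0 of 8 higher, with 0 at an unadjusted p under 0.05, and 3 lower, Pou2f3 (log2 -0.86), Il17rb (log2 -0.64) and Trpm5 (log2 -0.52). The calls of Insm1, Il17rb and Trpm5 were each lost when some single library was left out. Of 4 tested stomach and colon markers Gkn3 and Pgc were higher and Atp4a lower, or 75% called. Pgc, at 30, 38 and 40 normalized reads with T3 and 14, 7 and 9 with vehicle, passed the filter through its T3 libraries, and with a filter at 50 normalized reads the higher genes were 1.

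Because several Reg genes are best known from the pancreas, acinar markers were examined. Of 13 such genes 9 were at 0 in all libraries, including Cpa1, Cpb1 and Prss2, and 2 passed the filter. Ctrb1, a chymotrypsinogen gene, fell 3.39-fold to 165 ± 30.7 with T3, against 557 ± 63.7 with vehicle (limma adjusted p = 6.31e-06), and Cela1 was not called except without vehicle replicate 2 or with other scalings. The list summed to between 275 and 343 normalized reads with T3 and between 665 and 773 with vehicle. Nearly all of this came from Ctrb1 and Cela1, the latter at 151, 144 and 134 with T3 and 178, 151 and 195 with vehicle. The sum moved in the direction of Reg3a and Reg1, but this was mostly the fall of Ctrb1 alone. Its part in Reg3a and Reg1 was not tested. Of 14 immune markers 12 did not reach 10 normalized reads in any library and 8 were at 0 throughout. Of fibroblast, muscle, endothelial and neural markers 4 of 16 were tested, with sums between 304 and 372 with T3 and between 376 and 446 with vehicle. Across the immune list and this one limma called 0 of the tested genes, 0 had an unadjusted p under 0.05, and 1, Pecam1, was called when no variance trend was fitted.

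**Figure D5:**
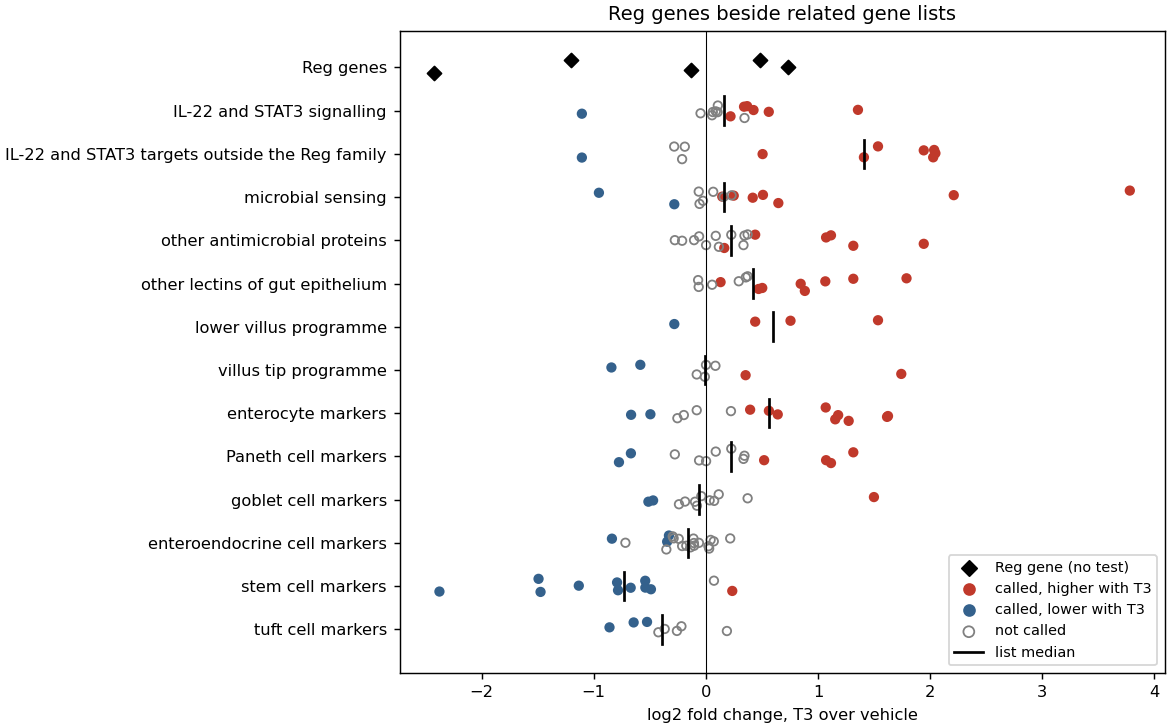
Log2 fold change of T3 over vehicle for the 5 tested Reg genes (black diamonds, no test) and for the tested genes of 13 lists, red where called higher, blue where called lower, open where not called, with each list's median as a bar. The Reg genes span -2.42 to 0.73, and the stem cell list lies mostly to the left of 0. The antimicrobial and lectin lists hold no gene called lower here, although Lyz1, Dmbt1, Lgals2 and Lgals4 were called lower under some alternatives.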

How the data were processed

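Reads per gene were made by the authors, and the submitters' processing notes name STAR, Subread and DESeq2 but no version. The build was mm10, per the file headers. The deposited sample columns are a normalized score, reads scaled between libraries by the authors and rounded to whole numbers, not a count. Their mean equals the authors' mean column to within 0.833. The authors' deposited log2 fold changes were used for comparison only, and the deposited exon length column gave levels per kb. Counts could not be recovered after rounding, so the depth behind a value is known only approximately and a count model was not fitted.

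Genes reaching 10 normalized reads in 3 or more libraries were tested with limma 3.58.1 in R 4.3.3 on log2(value + 1), with a mean-variance trend, no replicate block and Benjamini-Hochberg adjustment over all genes tested. Adding 1 before the log2 step makes fold changes of low genes too small. The method was tested on simulated data with few changed genes, large changes and less replicate scatter than Reg3b, Reg1 and Reg4 showed. That test does not cover changes as small as many called here. Sequences came from RefSeq (GRCm38.p6) and GENCODE M21 and were aligned with Biopython 1.88. Each of the 6 members matched a RefSeq window by symbol.

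The members and the 17 gene lists were chosen with earlier results of these data known. Genes named are the members, up to 4 called genes with the smallest p-value per list (or the 2 most abundant), the 3 genes most like each member, and neighbours within 500 kb. Some genes the rule takes are not reported here. Pecam1, Myd88, Stat3, Dmbt1, Lyz1, Lgals2, Lgals4, Tifa, Fut2, Mptx2, Pigr, Cela1 and the genes listed near 0 were named after their values were seen. So were Fabp2, Treh, Cdca7, Slc12a2, Tlr5, Fcgbp, Il6ra, Pias3 and Apob. Alternatives were other scalings, pseudocounts, filters, variance models and thresholds, a replicate block, and leaving out each library.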

Additional observations from a re-analysis of the deposited data

How the results depend on the processing

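The fold changes of the Reg genes can change only with the other scalings, the pseudocounts and the left-out libraries, and for the 4 whose groups did not overlap, leaving out a library cannot turn the direction. The block, the filters and the variance models leave these values as they are by construction. The log2 fold change ran from 0.64 to 0.89 for Reg3b, from 0.39 to 0.59 for Reg3g, from -2.497 to -2.15 for Reg3a and from -1.46 to -1.06 for Reg1. The value for Reg3a moved beyond the replicate spread only with a pseudocount of 10, to -2.152, a setting that by its construction shrinks changes of low genes. Reg4 ran from -0.24 to 0.04 and was positive only without T3 replicate 3. Between 4057 and 6855 genes were called, against 5851, and between 66 and 86 genes of the lists, against 78. The labels give both groups the numbers 1 to 3 but no shared source. Deviations of same-numbered libraries correlated at -0.07, 0.03 and -0.06 across genes, not every library correlated best with its own number, and with a replicate block 5405 genes and 80 list genes were called. Counts of calls within lists that moved by over 1.5 times when a library was left out stand beside those lists. Depth limits Reg3d and Reg2, whose presence below a few normalized reads was not detectable.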
